A study of Solanum lycopersicum with 17 samples.

Results

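Fruit of the tomato lines INO-RolB and DefH9-RolB was compared with wild-type fruit whose seeds had been taken out by hand, in 8 of the 17 arrays of the series. INO-RolB had 3 arrays, DefH9-RolB had 2, and the wild-type control without seeds had 3. The comparison asks what RolB fruit has beyond lacking seeds, and it was made for all 10038 probe sets of the Affymetrix tomato array that were not platform controls or reporters. Each array was hybridized with RNA from 1 plant of its line, as a pool of 8 whole fruits for the RolB lines and of 8 de-seeded fruits for the control. The 6 arrays of the lines INO-IaaM and DefH9-IaaM and the 3 arrays of wild-type fruit with its seeds are cited where they bear on a RolB result. The series title calls the fruit parthenocarpic, that is, set without fertilization, and the labels do not give the cultivar, the fruit's age or the number of independent transformants behind each line. They record hand removal of seeds for the wild type only, so that handling and the transgenes cannot be told apart in this comparison.

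RolB is a gene that Agrobacterium rhizogenes transfers to plants, where it changes the response of cells to auxin. INO (INNER NO OUTER, a gene of Arabidopsis) and DefH9 (DEFICIENS HOMOLOGUE 9, a gene of snapdragon) give the promoters, which act in ovules and, for DefH9, also in the placenta. IaaM encodes tryptophan monooxygenase, a bacterial enzyme of auxin synthesis, and auxin made in the ovule is known to start fruit growth without fertilization. RNA was measured here in the fruit, not in the ovules where the promoters act.

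Reporter signal separated the transgenic lines from wild type, except for reporter A in 1 RolB array. Of 63 reporter probe sets on the array, 61 stayed silent in all 17 arrays, with levels of 2.45 to 5.49 on the log2 RMA scale, and the other two gave signal in transgenic fruit. The probe set shown as reporter B read 9.21, 8.45 and 7.14 in the INO-RolB arrays and 9.48 and 9.62 in the DefH9-RolB arrays, against 4.09, 3.98 and 3.75 in the control without seeds. Reporter A read 9.95, 10.34 and 7.82 in INO-RolB and 10.83 in DefH9-RolB replicate 2, but 3.93 in DefH9-RolB replicate 1, against 3.83, 4.36 and 3.91 in the control. DefH9-RolB replicate 1 thus lacked the reporter A signal, and counts without it are given beside those that it decides. The IaaM arrays read 9.80 to 11.36 for reporter A and 9.74 to 11.31 for reporter B, so signal from these probe sets is not particular to RolB. Levels at or below 5.49 are treated below as not told apart from absence, and a difference that reaches into that range is a lower limit.

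Of 8 ripening and fruit-specific genes, 7 averaged 11.83 or more in both groups and did not pass the test between them, and TPRP-F1 is described below. E8, induced at ripening, averaged 13.69 ± 0.08 in the RolB arrays and 13.77 ± 0.13 in the control (SD, n = 5 and 3), and the fruit-specific 2A11 averaged 14.17 ± 0.04 against 14.23 ± 0.03. A set of 8 genes that had marked seeds in an earlier look at these arrays averaged 6.48 ± 0.73 in RolB fruit and 7.03 ± 0.88 in the control without seeds (exact two-sided permutation test, p = 0.375), against 10.8 ± 0.355 in fruit with seeds. The genes were chosen as lower after seed removal in these arrays, so the gap between the wild-type controls was fixed in advance. RolB minus control without seeds ran from −2.53 for LOC544276 to 0.97 for gad2, and the average cannot show equal seed content. The hybridization spikes did not match between groups: BioC minus BioB was 1.06 to 1.12 in the 5 RolB arrays and 0.508 to 0.714 in the control (exact permutation p = 0.0179, the smallest 5 against 3 arrays allow, adjusted p = 0.0536 over 6 measures). The other 9 arrays lay at 0.458 to 0.615, so whatever step of array processing that measure marks cannot be told apart from RolB. The 5′ minus 3′ signal of actin and gapdh, a sign of RNA integrity, was −0.41 ± 0.04 in RolB arrays and −0.69 ± 0.19 in the control (exact permutation p = 0.0179, adjusted p = 0.0536), and its part in the results was not tested beyond the refit given in the closing section.

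**Figure D1:**
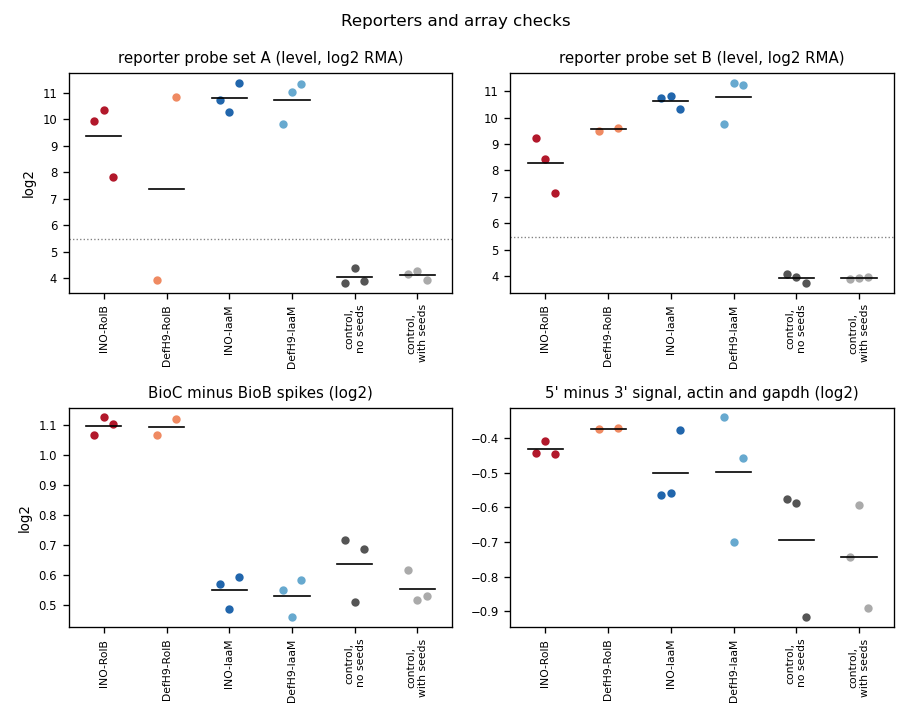
Reporter probe sets A and B (log2 RMA level, with a dotted line at the highest silent reporter, 5.49), the BioC minus BioB spike difference and the 5′ minus 3′ signal (log2), by group. Points are arrays and bars are group means. All 5 RolB arrays lie above the other 12 in BioC minus BioB, and DefH9-RolB replicate 1 lies at 3.93 for reporter A.

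RolB fruit differed from de-seeded wild-type fruit in 1692 of 10038 probe sets, or 16.9% (limma, Benjamini-Hochberg adjusted p under 0.05). Of these, 880 (8.77%) were higher and 812 (8.09%) were lower. The differences were mostly modest: the median size among called probe sets was 0.549 on the log2 scale, and 122 rises and 153 falls reached a log2 difference of 1. Called probe sets whose arrays did not overlap made up 7.57% (higher) and 7.37% (lower) of all. Called or not, 13.7% of probe sets did not overlap with RolB higher and 11.8% with RolB lower. The largest named rises and falls were chosen to have no overlap, so its mention below adds no support to them. Called probe sets with both levels inside the silent range numbered 162, and they are not read as changes. In bulk fruit, fewer cells of a type and less RNA per cell cannot be told apart. A gene name was given to 909 probe sets (803 genes), and 86 of these (9.46%) were higher and 96 (10.6%) lower. Without DefH9-RolB replicate 1 the comparison called 1224 probe sets, and without control replicate 1 or 3 it called 973 or 879.

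**Figure D2:**
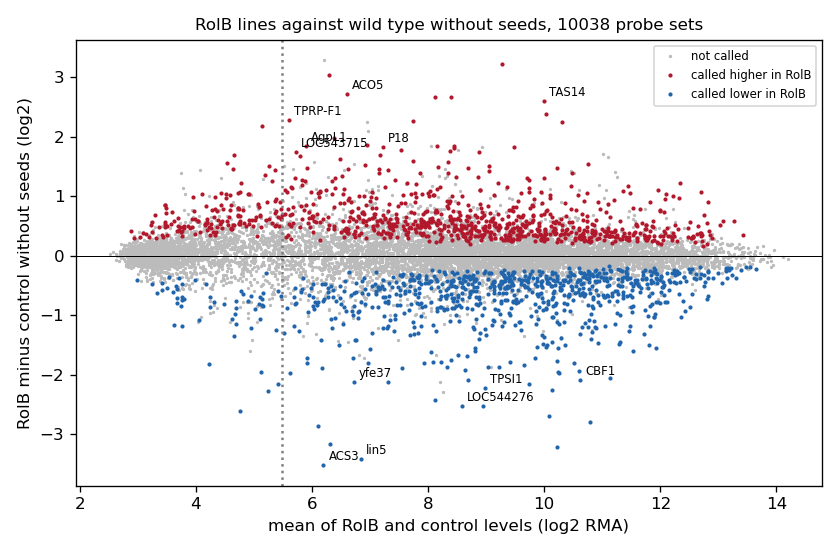
Difference between RolB lines and the control without seeds (log2) against the mean of both levels (log2 RMA) for 10038 probe sets. Red points are the 880 called higher, blue the 812 called lower, and grey the rest. The dotted line marks the highest silent reporter level, and the 6 largest named rises and falls are labelled.

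The largest rises among named genes were in ACO5, TAS14 and TPRP-F1. ACO5, which encodes an ACC oxidase of the last step of ethylene synthesis, read 9.11, 5.95 and 7.23 in INO-RolB and 9.43 and 7.59 in DefH9-RolB, against 5.17, 5.63 and 4.94 in the control without seeds. The groups did not overlap, but INO-RolB replicate 2 lay just above the highest control. The difference was 2.72 ± 0.61 (SE, limma adjusted p = 0.00985), a lower limit because 2 of 3 controls were in the silent range. TAS14, a dehydrin known from drought, salt and abscisic acid responses, read 12.04, 10.09 and 11.39 in INO-RolB and 11.66 and 11.21 in DefH9-RolB, against 8.79, 7.83 and 9.46 in the control. Every RolB array was above every control array, with a difference of 2.61 ± 0.50, or 6.11-fold (limma adjusted p = 0.00517). TPRP-F1, a proline-rich protein of young fruit, read 7.12, 5.13 and 6.87 in INO-RolB and 7.18 and 7.05 in DefH9-RolB, against 4.98, 4.75 and 3.68 in the control. INO-RolB replicate 2 stood far below the other RolB arrays, inside the silent range with the controls, and the rise of 2.28 ± 0.51 (limma adjusted p = 0.00981) missed the threshold without control replicate 3 (highest adjusted p over the left-out arrays 0.0538).

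The steepest falls were in ACS3 and lin5. ACS3, an ACC synthase, which makes the direct precursor of ethylene, read 4.67, 3.70 and 4.98 in INO-RolB and 4.92 and 3.91 in DefH9-RolB, against 9.13, 7.59 and 7.17 in the control without seeds. All RolB values were in the silent range and all controls above it, so the difference of −3.53 ± 0.45 (11.5-fold lower, limma adjusted p = 0.000747) is a lower limit of the fall. lin5, a cell-wall invertase that splits sucrose outside the cell, read 4.00, 6.67 and 4.58 in INO-RolB and 4.95 and 5.40 in DefH9-RolB, against 8.69, 8.46 and 8.51 in the control. INO-RolB replicate 2 alone rose above the silent range, and the difference was −3.42 ± 0.70 (limma adjusted p = 0.00679). LOC544276, listed in RefSeq with the synonym ICL (isocitrate lyase of the glyoxylate cycle), read 5.84, 6.77 and 7.97 in INO-RolB and 6.99 and 8.57 in DefH9-RolB, against 9.96, 9.11 and 10.49 in the control. Its groups did not overlap and it fell by 2.53 ± 0.57 (limma adjusted p = 0.0104). The call ended without control replicate 3. It is also 1 of the 8 seed-linked genes and read 12.48, 12.01 and 12.55 in fruit with seeds, and residual seed tissue in the control was not tested as a part of this difference.

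**Figure D3:**
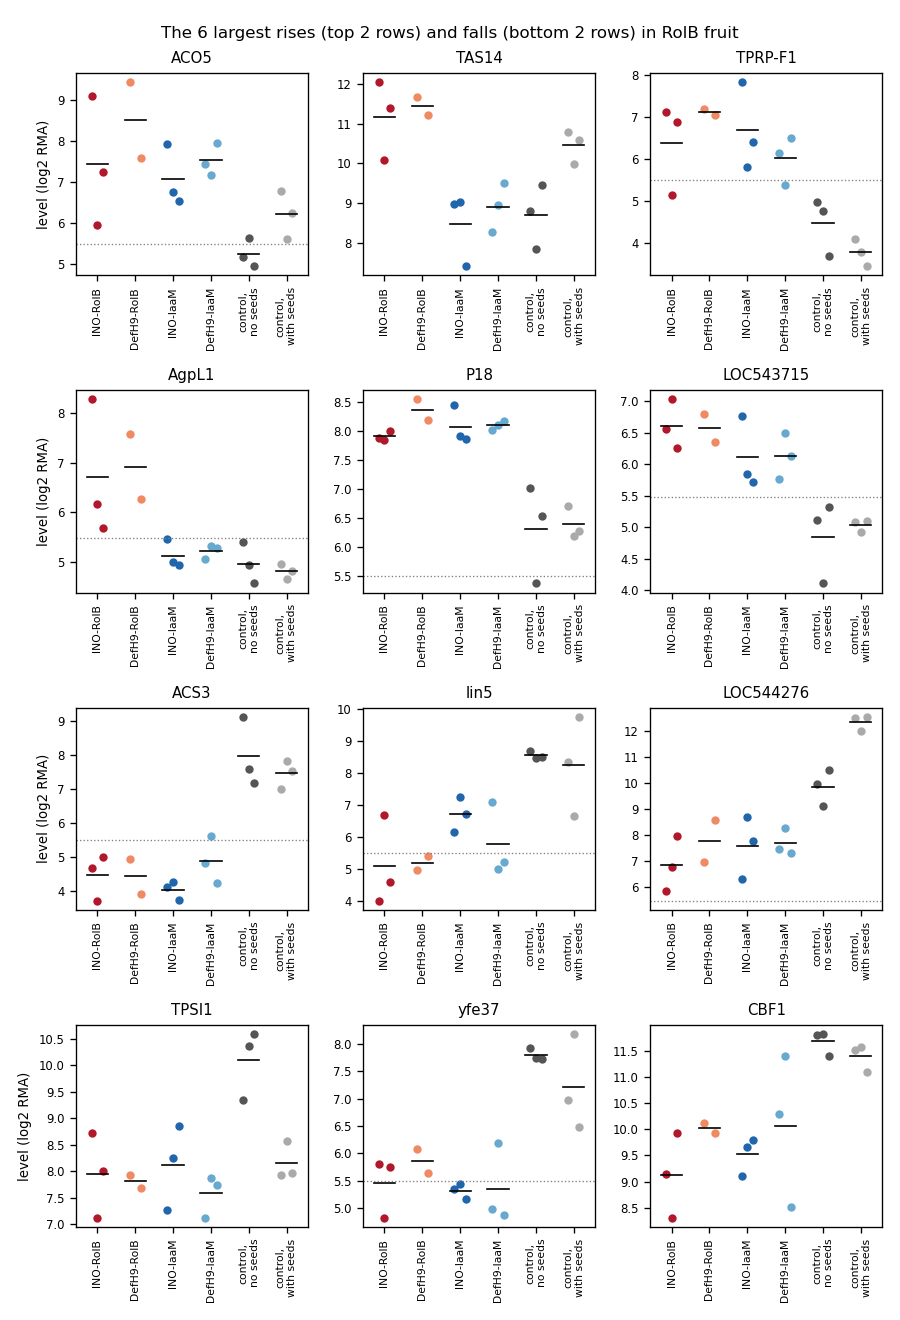
Levels (log2 RMA) of the 6 genes with the largest rises and the 6 with the largest falls in all 17 arrays, by group. Points are arrays, bars group means and dotted lines the highest silent reporter level where it lies near the values. RolB arrays are at the left and both wild-type controls at the right; the 5 RolB values of ACS3 run from 3.70 to 4.98 and its 3 values without seeds from 7.17 to 9.13.

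Other large falls included regulators of stress responses. CBF1, a transcription factor of the cold response, read 9.15, 8.31 and 9.94 in INO-RolB and 10.11 and 9.93 in DefH9-RolB, against 11.80, 11.82 and 11.40 in the control without seeds. It fell by 2.10 ± 0.50 (limma adjusted p = 0.0129), with no overlap. The mitogen-activated protein kinase gene MPK3, a signalling kinase of wounding and defence, fell by 1.87 ± 0.38 (adjusted p = 0.0066) on its leading probe set, with 8.33, 7.50 and 8.70 in INO-RolB and 8.79 and 7.98 in DefH9-RolB, against 10.27, 10.16 and 10.03. A further probe set gave −1.84, and the faintest, at 5.27 in RolB arrays and 5.77 in the control, gave −0.49 (adjusted p = 0.235). Intact fruit with seeds was also higher than RolB fruit for both genes: RolB minus control with seeds was −1.82 for CBF1 (limma adjusted p = 0.0159) and −1.35 for MPK3 (adjusted p = 0.0185). TPSI1, a transcript induced by phosphate starvation, read 8.71, 7.12 and 8.01 in INO-RolB and 7.93 and 7.68 in DefH9-RolB, against 9.34, 10.36 and 10.59 in the control without seeds. It fell by 2.22 ± 0.41 (adjusted p = 0.0042), but fruit with seeds was at 7.93, 8.57 and 7.97, so that RolB fruit differed from de-seeded and not detectably from intact wild-type fruit (difference −0.28, adjusted p = 0.649). ER5, an ethylene-responsive LEA-like gene, fell by 2.06 ± 0.55 (adjusted p = 0.023), and leaving out any 1 of the 3 control arrays or DefH9-RolB replicate 2 ended the call.

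The other genes with the largest differences are listed here with their symbols, several without an annotated function. PLDb2, a phospholipase D that cuts membrane phospholipids, read 8.20, 7.72 and 8.17 in INO-RolB and 8.34 and 7.72 in DefH9-RolB, against 9.73, 9.60 and 9.41 in the control without seeds, a fall of 1.55 ± 0.24 (limma adjusted p = 0.00208). LOC544312 fell by 2.10 ± 0.40 (adjusted p = 0.0048), with 6.61 to 8.18 in RolB arrays and 9.13 to 10.38 in the control. LOC543701 fell by 1.72 ± 0.42 (adjusted p = 0.0153), a call that ended without control replicate 1 or DefH9-RolB replicate 2. Among the rises, ODD read 6.83, 7.80 and 7.10 in INO-RolB and 5.95 and 6.10 in DefH9-RolB, against 5.44, 4.50 and 4.93, with all controls in the silent range and a rise of 1.68 ± 0.37, a lower limit (adjusted p = 0.0101). LOC543715 rose by 1.75 ± 0.30 (adjusted p = 0.0029), also from silent controls, with 6.26 to 7.03 in RolB arrays and 4.11 to 5.32 in the control. LOC543757 rose by 1.27 ± 0.20 (adjusted p = 0.00204), with 7.47 to 8.54 in RolB arrays and 6.33 to 7.06 in the control, and a fainter probe set of it, in the silent range, gave 0.79 (adjusted p = 0.0229). DDTFR8 and LOC544081 rose by 1.48 and 1.43 (adjusted p = 0.0162 and 0.0245), and both calls ended without DefH9-RolB replicate 1, that of DDTFR8 also without control replicate 3 and that of LOC544081 without control replicate 2 or DefH9-RolB replicate 2.

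In the ethylene pathway, 1 of 14 synthesis genes was higher and 5 were lower, with a median difference of −0.27, and of 26 receptor and signalling genes none was higher and 1 was lower, with a median of −0.11. Over all 802 named gene symbols, 73 were higher and 91 lower (20.4% called), with a median of −0.01. With the 5′ minus 3′ signal in the fit, 0 synthesis genes were higher and 2 lower, and 0 signalling genes were called in either direction. Ethylene is made by ACC synthases (ACS) from S-adenosylmethionine and then by ACC oxidases (ACO), and it drives the ripening of tomato fruit. ACS1A read 5.46, 5.40 and 5.67 in INO-RolB and 6.51 and 5.87 in DefH9-RolB, against 7.46, 8.15 and 7.09 in the control without seeds, a fall of 1.72 ± 0.31 (limma adjusted p = 0.00374) with no overlap. SAM3, which makes S-adenosylmethionine, fell by 0.35 (adjusted p = 0.00702). ACO4 and ACO6 fell by 0.78 and 0.58 (adjusted p = 0.0324 and 0.0399), with overlapping arrays, and 2 further ACO6 probe sets gave −1.19 and −1.31. The synthase genes of ripe fruit did not pass: ACS2 differed by 0.29 (adjusted p = 0.282) and ACS4 by 0.04 (adjusted p = 0.933). The single signalling gene called was EIL3, a transcription factor of the EIN3 family, with 11.54, 11.41 and 11.44 in INO-RolB and 11.39 and 11.28 in DefH9-RolB, against 11.97, 11.99 and 11.88. Leaving out DefH9-RolB replicate 1, INO-RolB replicate 1 or 3, or control replicate 1 or 3 gave 1 synthesis gene higher and 3 lower.

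Of 8 auxin genes, IAA3 fell and the other 7 did not pass (median of all 8, 0.03). The called share was 12.5%, against 20.4% of all named genes. IAA3 belongs to the Aux/IAA proteins, which repress auxin-response genes and are removed when auxin is sensed. It read 10.08, 9.96 and 10.37 in INO-RolB and 10.13 and 10.35 in DefH9-RolB, against 11.54, 11.46 and 11.40 in the control without seeds. The fall of 1.28 ± 0.13, to a level 2.42-fold lower (limma adjusted p = 0.000218), held its call without any 1 of the 8 arrays, with an adjusted p of at most 0.00217. A second IAA3 probe set, at 5.72 in RolB arrays and 6.12 in the control, gave −0.40 ± 0.22 (adjusted p = 0.232). Of the rest, IAA2, IAA7 and IAA16 were in the silent range in RolB fruit and control alike, IAA27 differed by −0.26 (adjusted p = 0.414) and the auxin response factor ARF3 by 0.04 (adjusted p = 0.813). Fainter probe sets of IAA27 and ARF3 gave 0.24 and −0.24 (adjusted p = 0.134 and 0.172).

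Other hormone lists held at most 2 calls each. Of 8 abscisic acid and dehydration genes, TAS14 rose and ER5 fell, a called share above the 20.4% of all named genes. NCED1, which encodes the limiting step of abscisic acid synthesis, differed by −0.21 (limma adjusted p = 0.22). None of 8 gibberellin genes passed, 4 of them having an unadjusted p under 0.05 and the list a median of −0.28. Of 7 cytokinin and homeobox genes, T6, a knotted-like homeobox gene, fell by 0.82 ± 0.26 (adjusted p = 0.0421), and each of 6 single arrays, when left out, ended that call. The called shares of the gibberellin and cytokinin lists, 0% and 14.3%, were below the 20.4% of all named genes.

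Of 14 genes of DNA replication and the cell cycle, 5 were called higher and none lower, with a median difference of 0.29, and 2 of the 5 lay wholly in the silent range. The called share was 35.7%, against 20.4% of all named genes. Both shares count calls in the silent range, which are not read as changes. The list had 3 higher without control replicate 1, 4 or 5 higher without any other 1 of the 8 arrays, and 4 higher with the 5′ minus 3′ signal in the fit. P18, listed with the synonym dUTPase, an enzyme that keeps uracil out of new DNA, read 7.88, 7.84 and 8.00 in INO-RolB and 8.55 and 8.19 in DefH9-RolB, against 7.01, 5.37 and 6.54 in the control without seeds. The lowest RolB array was above the highest control, and the rise was 1.83 ± 0.28 (3.56-fold, limma adjusted p = 0.00178). PCNA, the sliding clamp of DNA polymerase, read 8.65, 8.31 and 8.09 in INO-RolB and 8.42 and 8.11 in DefH9-RolB, against 7.43, 6.96 and 7.37, a rise of 1.05 ± 0.17 (adjusted p = 0.0022). The A-type cyclin gene CycA3 rose by 0.30 ± 0.07 (adjusted p = 0.0136), with 9.48 to 9.63 in RolB arrays and 9.21 to 9.35 in the control, a call that ended without control replicate 1. CDKB1, a kinase gene of the G2-to-M transition, and CycA1 were the 2 in the silent range (CDKB1 5.00 to 5.26 in RolB arrays and 4.40 to 4.47 in the control). The lines with IaaM had P18 at 7.86 to 8.46 and PCNA at 7.98 to 8.63, and RolB minus IaaM was 0.05 for P18 (adjusted p = 0.937) and 0.07 for PCNA (adjusted p = 0.834).

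In sucrose and starch metabolism, 4 of 24 genes were higher and 1, lin5, was lower (median −0.09). The called share of 20.8% is near the 20.4% of all named genes. AgpL1, the gene of 1 large subunit of the ADP-glucose pyrophosphorylase enzyme, the entry step of starch synthesis, read 8.28, 6.16 and 5.69 in INO-RolB and 7.58 and 6.26 in DefH9-RolB, against 5.40, 4.93 and 4.57 in the control without seeds. All controls were silent and all RolB arrays above them, so the rise of 1.85 ± 0.46 (limma adjusted p = 0.0169) is a lower limit. It missed the threshold without DefH9-RolB replicate 1 or control replicate 3. SPS, sucrose phosphate synthase, rose by 0.24 ± 0.06 (adjusted p = 0.0123), with 12.64 to 12.74 in RolB arrays and 12.45 to 12.49 in the control. The sucrose synthase gene sus3 rose by 0.38 ± 0.10 (adjusted p = 0.0203) and AGP-S2, listed with the synonym agpL2, by 0.25 (adjusted p = 0.0285). Without DefH9-RolB replicate 1 or control replicate 3, 1 gene of the list was higher and 1 lower, and without control replicate 2, 3 were higher and 2 lower. With the 5′ minus 3′ signal in the fit none was higher or lower, and the median was 0.19.

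Nitrogen and organic acid genes gave the most falls of the lists by count: 8 of 27 were lower and 2 higher, with a median of −0.36. This is 1 of the longer lists. Its called share of 37.0% lay between the 42.9% of ethylene synthesis genes and the 20.4% of all named genes. AAP2, an amino acid permease, read 10.43, 10.87 and 10.73 in INO-RolB and 10.91 and 10.63 in DefH9-RolB, against 12.43, 12.44 and 12.13 in the control without seeds, a fall of 1.60 ± 0.27 (3.04-fold, limma adjusted p = 0.0029). AAP1, a related permease gene, fell by 1.23 ± 0.20 (adjusted p = 0.00251), with 8.03 to 8.77 in RolB arrays and 9.24 to 10.12 in the control. The proline transporter genes ProT1 and ProT2 fell by 0.68 and 1.09 (adjusted p = 0.00474 and 0.0148), and neither overlapped between groups. yfe37, listed with the synonym GAD3, read 5.80, 4.82 and 5.75 in INO-RolB and 6.08 and 5.63 in DefH9-RolB, against 7.92, 7.73 and 7.72, a fall of 2.13 ± 0.37 (adjusted p = 0.00321). ADC (arginine decarboxylase), gdh1 (glutamate dehydrogenase) and LOC544276 were the remaining falls. The malate dehydrogenase genes mMDH1 and cMDH were higher, cMDH by 1.39 ± 0.39 (adjusted p = 0.026) with 9.93 and 9.74 in DefH9-RolB and 8.00, 7.74 and 8.95 in INO-RolB, against 7.87, 7.42 and 7.63. Its INO-RolB arrays thus overlapped the control. Over the 8 left-out arrays the list had 0 to 2 higher and 6 to 8 lower. The rises numbered 1 without control replicate 2 or either DefH9-RolB array and 0 without control replicate 3. With the 5′ minus 3′ signal in the fit 1 was higher and 3 were lower.

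**Figure D4:**
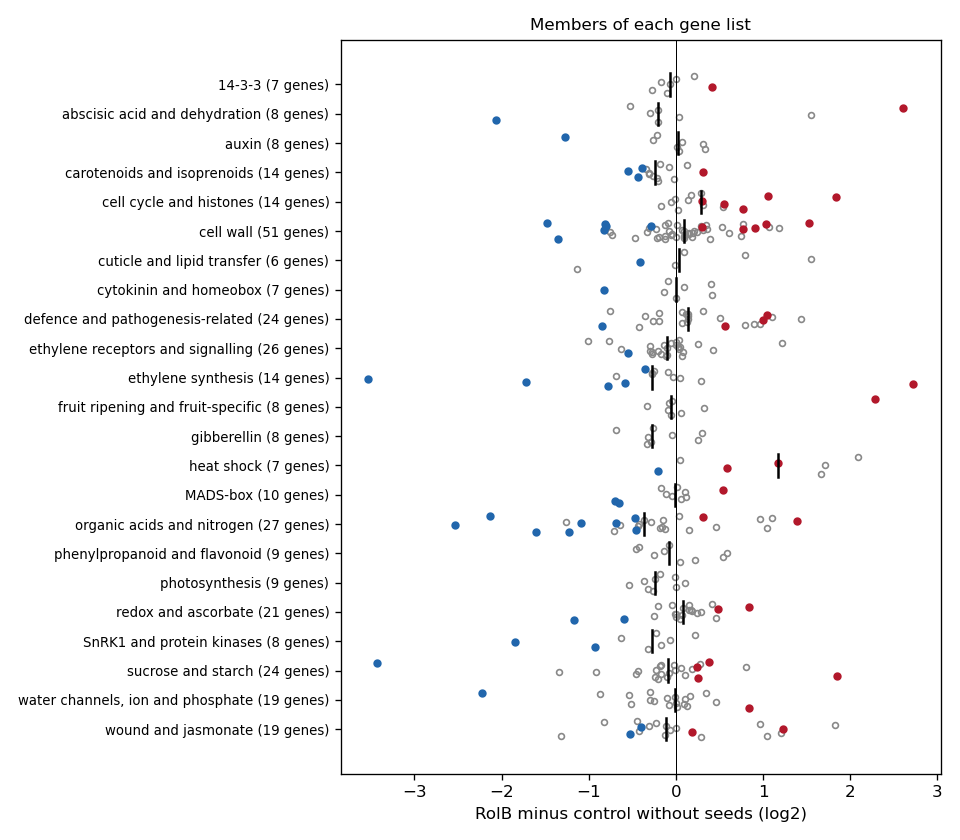
Difference between RolB lines and the control without seeds (log2) for each member of 23 gene lists, with 1 probe set per gene. Red and blue points are genes called higher and lower, open points did not pass, and black bars are list medians. Organic acids and nitrogen had 8 falls and 2 rises of 27, and the cell cycle 5 rises of 14, 2 of them in the silent range. Of all 802 named gene symbols, 73 were called higher and 91 lower.

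Of 51 cell wall genes, 5 were called higher and 6 lower (median 0.09), which at 21.6% is near the 20.4% of all named genes. TBG2, a beta-galactosidase, read 8.29, 8.62 and 8.40 in INO-RolB and 8.45 and 8.49 in DefH9-RolB, against 9.27, 9.28 and 9.29 in the control without seeds, a fall of 0.83 ± 0.10 (limma adjusted p = 0.000485). TBG5, of the same family, moved the other way, by 0.77 ± 0.15 (adjusted p = 0.00596), with 9.45 to 10.17 in RolB arrays and 8.97 to 9.20 in the control. The xyloglucan endotransglycosylase gene tXET-B2 fell by 1.48 ± 0.40 (adjusted p = 0.023), with 9.24 at the lowest and 10.87 at the highest in RolB arrays and at least 11.46 in the control, and the call was lost without control replicate 1 or 3 or DefH9-RolB replicate 2. The expansin gene exp9, for a protein that loosens walls, rose by 1.53 ± 0.41 (adjusted p = 0.0238), with 7.35 to 8.14 in RolB arrays and 5.07 to 6.88 in the control, and that call was lost without control replicate 2 or DefH9-RolB replicate 2. The called rises of cel7 and XET4 and the called falls of exp18 and BR1 had group means wholly in the silent range. The rises numbered 2 without control replicate 2 or 3 and 3 without INO-RolB replicate 1 or 2 or DefH9-RolB replicate 2, and the falls 3 without control replicate 1. With the 5′ minus 3′ signal in the fit 2 were higher and 3 lower. The polygalacturonase gene PG2, which degrades pectin in ripe fruit, differed by −0.33 (adjusted p = 0.399).

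Of 14 carotenoid and isoprenoid genes, 3 were lower (NSY, PSY2 and DXS) and 1, MTS1, was called higher within the silent range (median −0.24), and 28.6% were thus called, against 20.4% of all named genes. NSY, neoxanthin synthase, read 8.93, 9.04 and 9.15 in INO-RolB and 8.80 and 8.95 in DefH9-RolB, against 9.61, 9.61 and 9.32 in the control without seeds, a fall of 0.55 ± 0.11 (limma adjusted p = 0.00569). PSY2 and DXS fell by 0.39 and 0.43 (adjusted p = 0.0312 and 0.0362), and each call was lost without any of 6 single arrays. Psy1, the phytoene synthase of fruit, differed by −0.08 (adjusted p = 0.368) on its brightest probe set. Of 8 ripening and fruit-specific genes, TPRP-F1 was the single call. None of 9 photosynthesis genes and none of 9 phenylpropanoid genes passed, with 2 and 0 at an unadjusted p under 0.05.

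Among 10 MADS-box genes, which set organ identity in flowers and fruit, TDR6 was higher and AG1 and AGL11 were lower (median −0.02). TDR6, listed with the synonym TM6, a petal and stamen identity gene, read 9.50, 9.58 and 9.69 in INO-RolB and 9.98 and 9.49 in DefH9-RolB, against 9.14, 9.13 and 9.11 in the control without seeds. It rose by 0.53 ± 0.13 (limma adjusted p = 0.0137), which did not pass without control replicate 3. AG1, the carpel and stamen identity gene of the AGAMOUS type, read 10.61, 11.33 and 11.22 in INO-RolB and 10.83 and 10.87 in DefH9-RolB, against 11.56, 11.59 and 11.65, a fall of 0.65 ± 0.14 (adjusted p = 0.00847). AGL11, a related gene of ovule identity, fell by 0.70 ± 0.20 (adjusted p = 0.0331), and each of 6 single arrays, when left out, ended the call. The called share of the list was 30.0%, against 20.4% of all named genes. With the 5′ minus 3′ signal in the fit, 0 MADS-box genes were called.

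Defence and wound genes gave a few calls each. Of 24 defence genes, TGAS118, CHI17 and NP24-I rose and CHI14 fell (median 0.14). The called share was 16.7%, against 20.4% of all named genes. TGAS118, listed with the synonym DEFL2 for a defensin-like peptide, read 12.59, 12.44 and 12.68 in INO-RolB and 12.58 and 12.73 in DefH9-RolB, against 11.74, 11.46 and 11.52 in the control without seeds, a rise of 1.04 ± 0.15 (limma adjusted p = 0.00153). CHI14, a chitinase that breaks fungal walls, read 9.90, 10.00 and 10.35 in INO-RolB and 9.72 and 8.99 in DefH9-RolB, against 10.44, 10.82 and 10.45, a fall of 0.85 ± 0.18 (adjusted p = 0.00841). Of 19 wound and jasmonate genes, LOX1.1 and LAPA2 rose and HPL and MYC2 fell (median −0.12), a called share of 21.1%, near that of all named genes. The calls of LAPA2 and MYC2 each held in 1 of the 8 fits that left out an array, with adjusted p up to 0.133 and 0.153. LOX1.1, a lipoxygenase that oxidizes polyunsaturated fatty acids, read 12.65, 12.84 and 13.00 in INO-RolB and 13.09 and 13.09 in DefH9-RolB, against 11.66, 11.77 and 11.77. Its rise of 1.23 ± 0.19 (2.34-fold, adjusted p = 0.00204) held its call without any 1 of the 8 arrays. HPL, hydroperoxide lyase, which makes leaf aldehydes from lipoxygenase products, fell by 0.53 ± 0.11 (adjusted p = 0.00686).

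Redox and heat shock genes were called in both directions. Ascorbate oxidase (AO1) fell by 1.17 ± 0.25 (limma adjusted p = 0.00841), with 7.30 to 7.97 in RolB arrays and 8.31 to 9.29 in the control without seeds, and chloroplast superoxide dismutase (SODCP.2) rose by 0.84 ± 0.19 (adjusted p = 0.0113), among 2 rises and 2 falls of 21 redox genes. At 19.0%, the called share of the redox list was near the 20.4% of all named genes. Of 7 heat shock genes, 2 small heat shock proteins were higher and HSC80 lower, and the list had the largest median, 1.17. Its called share was 42.9%, against 20.4% of all named genes. HSP17-6 rose by 0.59 ± 0.12 (adjusted p = 0.00616), with 13.07 to 13.65 in RolB arrays and 12.71 to 12.89 in the control, while HSP21 and HSC80 lost their calls in 6 and 8 of the 8 fits that left out an array. In those fits 1 to 4 heat shock genes were higher and 0 lower. With the 5′ minus 3′ signal in the fit, 0 heat shock and 0 redox genes were called, and the heat shock median was 0.62. Of 8 kinase genes, MPK3 and GAL83 fell. GAL83, a beta subunit of the energy-sensing kinase SnRK1, read 7.89, 7.64 and 7.67 in INO-RolB and 7.61 and 7.70 in DefH9-RolB, against 8.85, 8.37 and 8.62, a fall of 0.92 ± 0.14 (adjusted p = 0.00151), while the catalytic subunit gene SNF1 differed by −0.06 (adjusted p = 0.744). The remaining lists had 1 rise of 7 among 14-3-3 genes (TFT7), 1 fall of 6 among cuticle genes (GPAT), and Aqp2 higher and TPSI1 lower among 19 transport genes. Their called shares of 14.3%, 16.7% and 10.5% were below the 20.4% of all named genes. The calls of CHI17 and sus3 ended without control replicate 3, that of TFT7 without control replicate 1, and those of NP24-I and Aqp2 without either; sus3, NP24-I and Aqp2 also missed the threshold without DefH9-RolB replicate 1.

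The lines were not told apart from each other. INO-RolB alone differed from the control without seeds in 1028 probe sets (10.2%), and DefH9-RolB alone in 863 (8.6%). Without DefH9-RolB replicate 1 the 863 became 163, without DefH9-RolB replicate 2 it became 351, and without control replicate 1 or 3 it became 540 or 385. The 1028 became 552, 285 or 684 without INO-RolB replicate 1, 2 or 3, and 417 or 433 without control replicate 1 or 3. INO-RolB against DefH9-RolB called 0 probe sets by limma (0%), with 391 at an unadjusted p under 0.05, and 6 were called without DefH9-RolB replicate 1. For IAA3, INO-RolB minus control was −1.33 ± 0.14 and DefH9-RolB minus control −1.22 ± 0.16. ACO5 was higher by 2.18 ± 0.67 in INO-RolB (adjusted p = 0.0548) and by 3.27 ± 0.75 in DefH9-RolB (adjusted p = 0.0206). The difference between the lines, −1.08 ± 0.75, did not pass the threshold. GLB2, a hemoglobin gene and 1 of the 8 seed-linked genes, differed by −1.66 ± 0.36 in INO-RolB minus DefH9-RolB (adjusted p = 0.916).

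Against the IaaM lines, which also carry an ovule-targeted transgene, RolB fruit differed in 293 probe sets (2.92%), 195 higher (1.94%) and 98 lower (0.976%). Of the named probe sets, 19 (2.09%) were higher and 12 (1.32%) lower. Leaving out DefH9-RolB replicate 1 reduced the 293 to 79, and without INO-RolB replicate 2, INO-IaaM replicate 2, or DefH9-IaaM replicate 1 or 3 it was 173, 150, 181 or 171. TAS14 was higher in RolB fruit by 2.62 ± 0.42 (limma adjusted p = 0.00768): its lowest RolB array was at 10.09, and the IaaM arrays had 7.41 at the lowest, 8.97 at the median and 9.50 at the highest. LOX1.1 was higher by 0.89 ± 0.16 (adjusted p = 0.0132), with 11.69 at the lowest, 12.20 at the median and 12.32 at the highest of the 6 IaaM arrays, which did not pass without DefH9-RolB replicate 1. IAA3 was lower by 0.69 ± 0.11 (adjusted p = 0.00734), with 10.71 at the lowest, 10.80 at the median and 11.37 at the highest of the 6 IaaM arrays. AgpL1 was higher by 1.64 ± 0.38 (adjusted p = 0.0362), with all IaaM arrays silent at 4.94 to 5.45. TDR6 was higher by 0.68 ± 0.11 (adjusted p = 0.00734) and CHI14 lower by 0.85 ± 0.15 (adjusted p = 0.012). Of the named probe sets called against IaaM, IAA3, CHI14 and CLB1 were below all 12 arrays of the other groups. AgpL1, LOC543757, LOX1.1, TDR6, SPM1 and sumo were above all 12. LOC543709 also lay below the 12, and SPS and PP2Ac2 above, without passing against IaaM (limma adjusted p = 0.115, 0.0852 and 0.145). Over all probe sets, 0.498% lay above and 0.498% below the 12. None of the 14 largest named falls against the control without seeds passed against IaaM. RolB minus IaaM was −0.02 for ACS3 (limma adjusted p = 0.987), 0.20 for AAP2 (adjusted p = 0.682), −0.22 for CBF1 (adjusted p = 0.825) and −0.33 for MPK3 (adjusted p = 0.626). Of the 14 largest named rises, only TAS14, AgpL1, LOC543757 and LOX1.1 passed against IaaM. The rises of ACO5 and TPRP-F1 were thus not told apart from IaaM fruit.

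**Figure D5:**
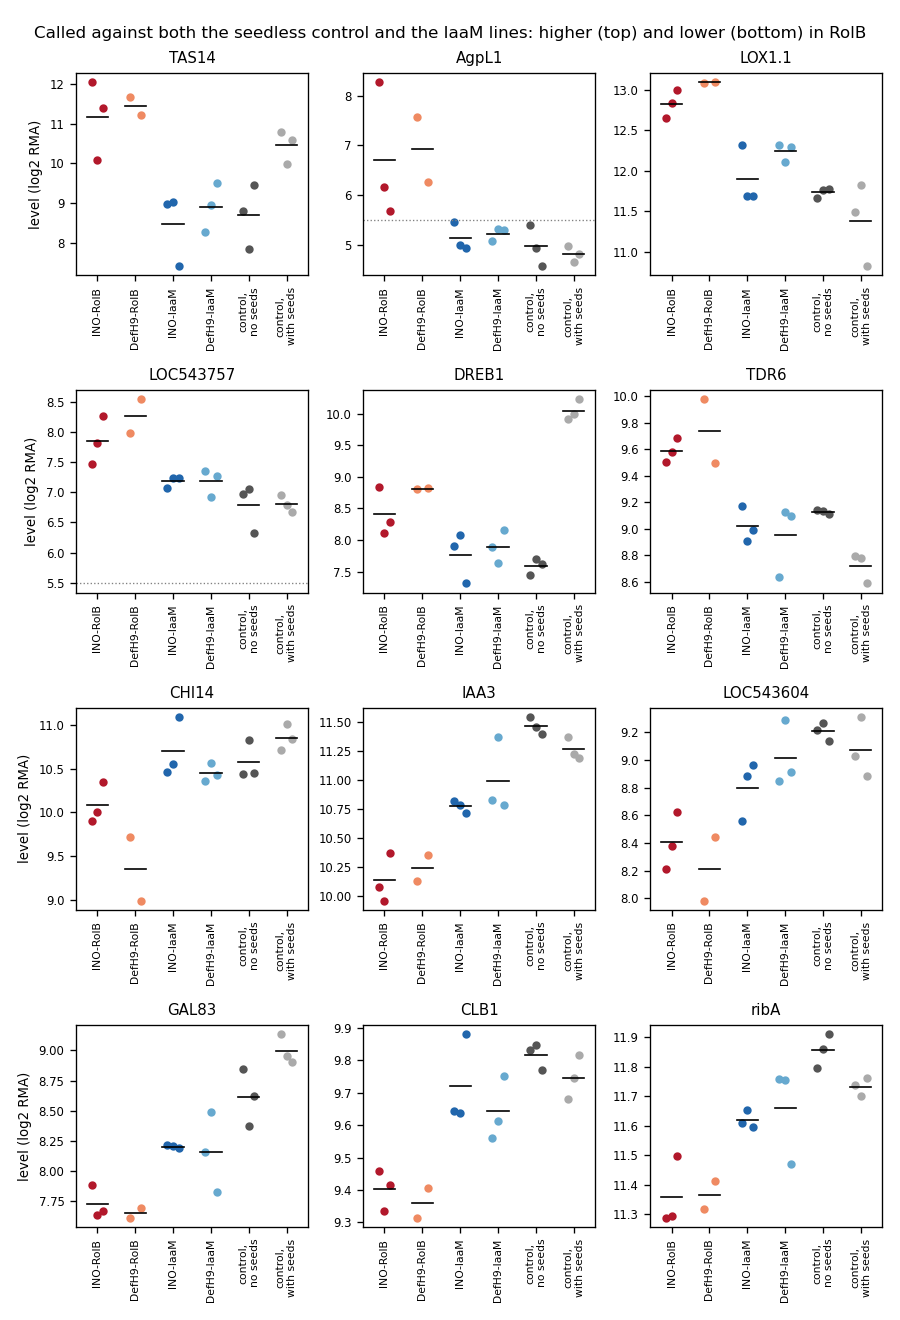
Levels (log2 RMA) of genes called against both the control without seeds and the IaaM lines, the 6 with the largest rises (top 2 rows) and the 6 with the largest falls (bottom 2 rows) against IaaM, in all 17 arrays. Points are arrays and bars group means. TAS14 was at 10.09 to 12.04 in RolB arrays and at 7.41 to 9.50 in IaaM arrays; with BioC minus BioB also apart in the RolB arrays, array processing and RolB cannot be told apart here either.

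Wild-type fruit with its seeds differed from RolB fruit in 2757 probe sets (27.5%), 1568 (15.6%) higher and 1189 (11.8%) lower in RolB fruit, and without control with seeds replicate 1 or 3 the count was 1831 or 1673. This comparison shares its RolB arrays with the one above, and its values are given beside it. IAA3 differed by −1.07 (limma adjusted p = 9.62e-05), LOX1.1 by 1.58 (adjusted p = 0.000105), GAL83 by −1.31 (adjusted p = 2.95e-05), PCNA by 1.21 (adjusted p = 0.000287) and ACS3 by −3.02 (adjusted p = 0.000453). TAS14 did not pass there, at 0.85 ± 0.50 (adjusted p = 0.23), since fruit with seeds had 10.80, 9.99 and 10.58. DREB1, a transcription factor gene of the dehydration response, was higher in RolB fruit than without seeds, by 1.02 ± 0.19 (adjusted p = 0.00432), and lower than with seeds, by 1.43 (adjusted p = 0.000178), with 8.11 to 8.84 in RolB arrays, 7.45 to 7.70 without seeds and 9.92 to 10.22 with seeds.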

How the data were processed

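The authors deposited 1 log2 value per probe set and array, made with RMA per the submitters' processing notes (version not given in the sources used here). RMA corrects background, normalizes arrays by quantiles and summarizes probes. Per the labels, RNA came from a hot borate extraction, and biotin labelling used Affymetrix's one-cycle kit. Array medians differed by under 0.1. The number of arrays, not depth, limits the precision.

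Of 10209 probe sets, 108 AFFX and 63 reporter probe sets served as checks and 10038 were tested. The platform annotation gave 909 probe sets 1 gene and 9129 none; gene numbers linked 885 of the 909 to RefSeq's tomato annotation (assembly SLM_r2.1), used for symbols and synonyms only. A group mean per probe set was fitted with limma 3.58.1 in R 4.3.3 over all 17 arrays (11 residual degrees of freedom). The comparison was the equal-weight mean of INO-RolB and DefH9-RolB minus the control without seeds, with Benjamini-Hochberg adjustment over 10038 probe sets and a threshold of 0.05; other comparisons were contrasts of the same fit. The limma p-values rest on a spread shared by all 6 groups, which joins that between plants and pools with that of array processing. Whether it holds any spread between independent transformants is not known, since the labels do not give their number. The 6 array measures had exact permutation tests.

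The genes named were the 14 largest rises and the 14 largest falls that passed, did not overlap between the 5 and 3 arrays and exceeded the silent range in a group, plus the passing members of each list with the smallest p, at most 4. Other genes were named to complete a family or a count. Lists were matched by symbol or synonym and then edited by hand after the names were read, with the highest mean taken over probe sets of a gene. The members, lists and rules were chosen with earlier results of these data known. On simulated data for this comparison, the fit recovered 40 of 67 probe sets changed by 0.5, 52 of 67 changed by 1 and 65 of 66 changed by 2 on the log2 scale. There were 9 false calls among the probe sets left unchanged. The simulation drew independent noise around equal means, with no shift between batches of arrays, so its rates hold for that setting only. Residuals of same-numbered arrays correlated at −0.02, 0.35 and 0.28 for INO-RolB with the control and at −0.16 and −0.27 for DefH9-RolB. For the control without seeds with the control with seeds they correlated at 0.44, 0.48 and 0.17. With 2 or 3 arrays per group these values cannot decide whether the numbers pair the plants. The main fit used no pairing. Alternatives changed the block, the samples, the normalization, the filter, the covariates, the threshold and the arrays left in. Python with pandas and matplotlib drew the figures.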

Additional observations from a re-analysis of the deposited data

Results flagged for a closer look

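Of 90 probe sets examined, 4 had 1 RolB array far from the other 4, by a gap of more than 0.71 of the range, and chance alone gives about 1 in 20. TPRP-F1 was at 5.129 in INO-RolB replicate 2 and at 6.867 to 7.185 in the others. PSY2 was at 9.733 in INO-RolB replicate 2 and at 9.21 to 9.355 in the others. LOC544256 was at 7.91 in INO-RolB replicate 2 and at 7.461 to 7.567 in the others. MTS1 was at 3.379 in DefH9-RolB replicate 2 and at 3.092 to 3.159 in the others, all within the silent range.

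Both transgene reporter probe sets, which no comparison used, gave signal above the controls in RolB fruit, and in IaaM fruit too. The exception was reporter A in DefH9-RolB replicate 1. The highest RolB array of reporter A was at 10.832, against 4.364 in the highest control array, and that of reporter B was at 9.621, against 4.093.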

How the results depend on the processing

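Counts were 352 (162 higher, 190 lower) when the 5′ minus 3′ signal entered as covariate, 2 (2 higher, 0 lower) with BioC minus BioB as a covariate, 556 (263 higher, 293 lower) at an adjusted p under 0.01, and 275 (122 higher, 153 lower) with a log2 difference of at least 1. BioC minus BioB lies almost wholly between the RolB arrays and the rest, so that covariate leaves little of the comparison to test. With it, no named probe set kept its call, and 11 changed sign without passing: AAP1 0.0401, AO1 0.36, AOX1a 0.14, ER5 0.84, GPAT 0.00298, LOC543701 0.67, LOC544081 −0.67, MYC2 0.0780, P18 −0.21, PSY2 0.0094 and SODCP.2 −0.0266. With the 5′ minus 3′ covariate 25 of 67 named probe sets kept their call, and 40 of 67 kept it without any 1 of the 8 arrays. Under the 5′ minus 3′ covariate the 14-3-3, MADS-box, ethylene signalling, ripening, heat shock, redox, sucrose and starch, and transport lists held no call. Abscisic acid genes had 2 higher and 0 lower, and the cuticle, cytokinin and wound lists 1 higher and 0 lower each. Defence genes had 1 higher and 1 lower, and the carotenoid, kinase and auxin lists 0 higher and 1 lower each. The cause was not tested.

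Leaving out 1 array at a time gave 879 to 1516 calls for RolB against the control without seeds (423 to 802 higher, 456 to 714 lower), 285 to 833 for INO-RolB, 163 to 613 for DefH9-RolB, 0 to 6 for INO-RolB against DefH9-RolB, 79 to 330 for RolB against IaaM, and 1673 to 2528 for RolB against the control with seeds. With the replicate number as a block the comparison called 1496 (775 higher, 721 lower), and the block moved no count over all probe sets by over 1.5 times. Among the lists the block left 1 heat shock gene higher and 0 lower, 1 MADS-box gene lower, 1 redox gene higher and 1 wound and jasmonate gene higher. It also left 4 ethylene synthesis genes lower and 4 cell wall genes higher and 5 lower. It gave 1 photosynthesis gene lower and 2 carotenoid genes lower. The other alternatives, among them array weights (2172) and the 8 arrays alone (1463), stayed within 1.5 times of 1692. List counts under each setting were added after seeing the data. What array signal limits is the silent range: levels at or below 5.49 have no order.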

Other observations

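A few genes that belong to none of the lists differed between RolB and IaaM fruit without passing the threshold against the control without seeds. GP1, listed with the synonym AroGP1, read 9.86 to 11.37 in RolB arrays and 8.22 to 9.38 in IaaM arrays, a difference of 1.87 ± 0.40 (limma adjusted p = 0.0263), and 10.49 at the highest in the control without seeds. rnalx was higher in RolB than in IaaM fruit by 0.79 ± 0.19 (adjusted p = 0.0443), with 11.49 and 11.30 in DefH9-RolB and 10.02, 10.09 and 10.88 in INO-RolB, against 9.32 to 10.79 in IaaM arrays. The alpha-dioxygenase gene ALPHA-DOX2 was higher by 0.55 ± 0.09 (adjusted p = 0.00946), with 8.12 to 8.54 in RolB arrays, 7.53 to 8.02 in IaaM arrays and 8.15 to 8.52 in the control without seeds.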
